A study of Mus musculus with 6 samples.

Results

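A set of 9 genes that mark neurons of the neocortical layers and of the subiculum were read as a gauge of how much neighbouring cortex came with each dissected hippocampus. They are Rorb, Cux2 and Lamp5 for the upper layers, Tbr1, Tle4, Foxp2 and Fezf2 for the deep layers, and Nts and Fn1 for the subiculum, the output field that lies between the hippocampus proper and the entorhinal cortex. The genes were taken by symbol, and all 9 of 9 were present among the 20620 genes of the deposited table and among the 20604 tested. The tested mice were 3 n-Braf males, with the genotype Braf Q241R/+ and a CaMKII-Cre transgene, aged 32 to 34 weeks. The 3 control males carried Braf Q241R Neo/+ without Cre and were 31 to 32 weeks old. All were on a C57BL/6J background and each gave 1 hippocampal RNA library. Both groups therefore hold a Braf allele with the Q241R substitution in the RAS-ERK pathway kinase BRAF, and wild-type mice were not analysed here. Cre and the absence of Neo go together in the labels, so their effects cannot be told apart.

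The neocortex is built of layers whose excitatory neurons are set apart during development by transcription factors, several of which stay on in the adult. Few of these factors are private to the neocortex. Tbr1 and Fezf2 are also made by neurons within the hippocampal formation, Lamp5 by a class of interneurons, Rorb by astrocytes and thalamic neurons, Foxp2 by striatal and thalamic neurons, and Fn1 by vascular cells and fibroblasts. The CaMKII promoter that drives Cre is active in excitatory neurons of the neocortex and subiculum as well as of the hippocampus. In bulk RNA, fewer cells of a type and less RNA per cell cannot be told apart.

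The n-Braf libraries held 30152839 to 31832245 assigned counts and the control libraries 25227112 to 27608256. Levels are counts scaled to a common library total (CPM) after scaling by trimmed means of M values (TMM). Braf checks the labels, with 185, 184 and 205 CPM in n-Braf 1, 2 and 3, against 116, 123 and 116 CPM in control 1, 2 and 3. Its log2 ratio of n-Braf over control was 0.69 (SE 0.068), and its adjusted p of 0.0533 by edgeR was just over the threshold of 0.05. Control 1 and control 2 stand apart in transcripts of the choroid plexus, the secretory epithelium of the ventricles. The 9 tested markers of it (of 10 listed, Aqp1 not being among the genes of the fit) summed to 88.1 to 105 CPM in n-Braf, against 3465, 1956 and 137 CPM in control 1, 2 and 3.

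None of the 9 genes passed the threshold between n-Braf and control, an adjusted p of 0.05 in edgeR's quasi-likelihood test over all genes. The same test called 0% of all genes higher and 0% lower, while DESeq2 called 79 genes and limma-voom 0, in both cases with 0 of the 9 among them. At an unadjusted p of 0.05 the members numbered 2, Nts and Fezf2, both higher in n-Braf. This count depended on single libraries: it was 0 without control 1, 1 without control 2 (Fezf2), 1 without n-Braf 1 (Nts), 1 without n-Braf 2 (Lamp5) and 1 without n-Braf 3 (Fezf2). Among all genes 6.82% lay under that p, 3.09% of them higher and 3.73% lower as shares of the genes tested. Fitted log2 ratios (log2 fold changes of n-Braf over control) were above 0 for 8 of 9 members, against 49% of all genes, and their median was 0.057, against -0.0042 over all genes. The groups did not overlap for 1 member, Fezf2, higher in n-Braf, where 6.09% of all genes did not overlap with n-Braf higher and 5.44% with n-Braf lower. The members' direction rested on single libraries for 5 genes. Without n-Braf 1 the fitted values were -0.096 for Tbr1, -0.063 for Cux2, -0.014 for Tle4 and -0.090 for Fn1. Without control 2 they were -0.059 for Tbr1, -0.095 for Cux2 and -0.16 for Fn1, and without n-Braf 2 the value of Cux2 was -0.019. Foxp2, the fifth, is described with its values.

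**Figure D1:**
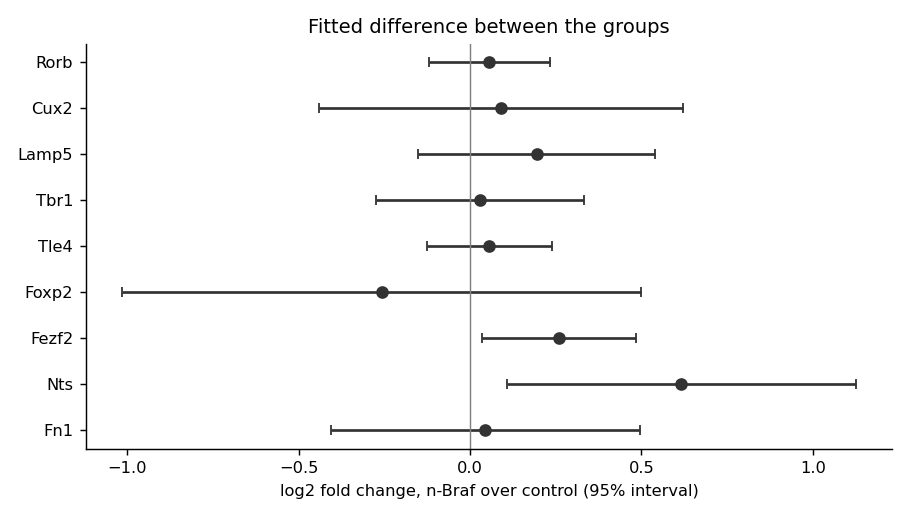
Fitted log2 fold change of n-Braf over control for each of the 9 genes (points) with its 95% interval (bars), from the quasi-likelihood fit across all genes. The intervals of Fezf2 (0.036 to 0.48) and Nts (0.11 to 1.13) lie above 0 before any adjustment, and the other 7 include 0.

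Per length, the members spanned a wide range of levels. Fezf2 was highest at a mean over the 6 libraries of 10.1 CPM per kb of exon, followed by Tle4 at 8.49, Fn1 at 8.11, Tbr1 at 5.98, Lamp5 at 5.57, Rorb at 3.80, Cux2 at 3.67 and Nts at 3.41 CPM per kb. Foxp2 was far below the rest at 0.164 CPM per kb. Neighbours in this order overlapped in their ranges over the libraries with 2 exceptions. Lamp5 at its lowest (4.68 CPM per kb) was above Rorb at its highest (4.09 CPM per kb), and Nts at its lowest (2.18 CPM per kb) was above Foxp2 at its highest (0.265 CPM per kb). Markers of hippocampal neurons spread over a similar range, and those above Fezf2 numbered 3 of 6 for CA1, 3 of 8 for the dentate gyrus and 0 of 7 for CA2 and CA3. Of 24 other neocortical layer markers, 6 were above Fezf2. The dentate granule cell factor Prox1 was at 12.8 CPM per kb and the CA1 marker Wfs1 at 17.9 CPM per kb, but the dentate marker Tdo2 at 0.616 CPM per kb. In that neocortical list, Scnn1a, a sodium channel subunit gene, was at 1.23 CPM per kb and Rspo1, a secreted WNT enhancer, at 0.229 CPM per kb. Both mark the granular layer and are little used in the hippocampus. These 5 comparison genes were chosen after their values were seen.

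**Figure D2:**
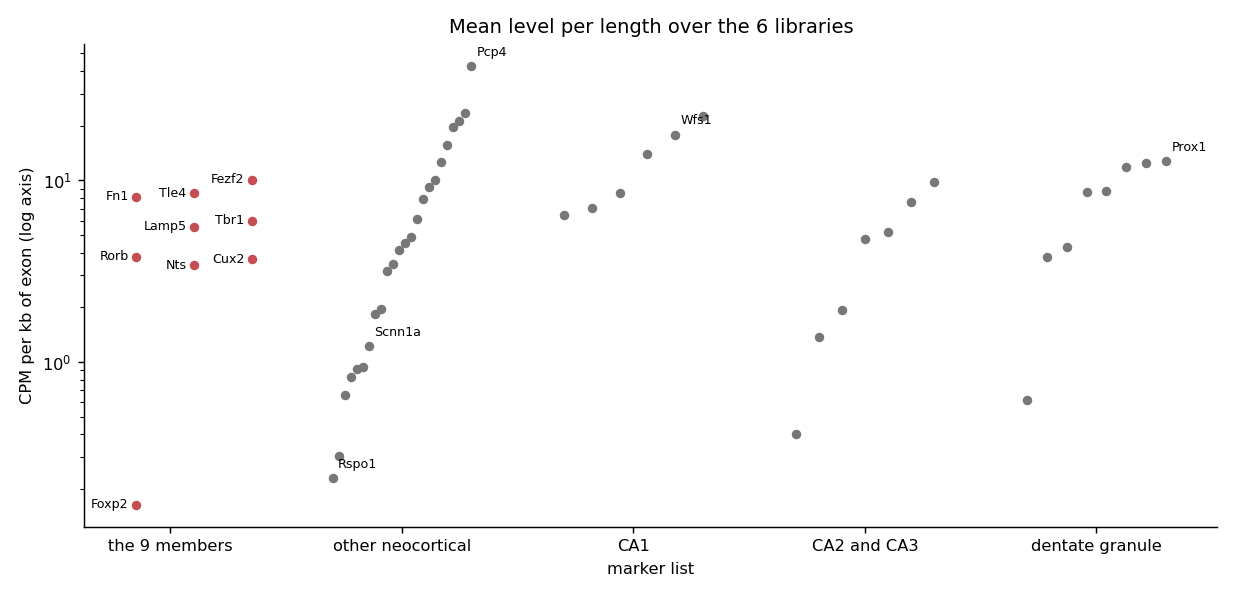
Mean level over the 6 libraries in CPM per kb of exon, on a log axis, for the 9 genes (red) and for 4 other marker lists (grey, 1 point per gene). All members except Foxp2 lie between 3.41 and 10.1 CPM per kb, within the spread of the other lists.

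Among the upper-layer genes, Rorb and Cux2 behaved differently across libraries. Rorb (chromosome 19, 18930605 to 19111196, minus strand) encodes a nuclear receptor of the granular layer. It was at 45.3, 42.6 and 40.7 CPM in n-Braf 1, 2 and 3, against 39.0, 40.0 and 44.6 CPM in control 1, 2 and 3. The groups overlapped, and the highest library exceeded the lowest 1.16-fold. The log2 ratio was 0.056 (SE 0.078, 95% interval -0.12 to 0.23, adjusted p = 0.954), so that the interval of the fold runs from 0.920 to 1.17. Coordinates are those of GRCm38, the assembly that mm10 names.

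Cux2 (chromosome 5, 121856366 to 122050102, minus strand), a homeobox factor of the superficial layers, was at 45.8, 43.7 and 25.1 CPM in n-Braf 1, 2 and 3, against 40.1, 26.0 and 41.6 CPM in control 1, 2 and 3. One library in each group, n-Braf 3 and control 2, was far below its companions, and the 4 others lay close together. The group means were 38.2 ± 11.4 CPM in n-Braf and 35.9 ± 8.57 CPM in control (SD, n = 3 each), with a log2 ratio of 0.090 (SE 0.23, adjusted p = 0.982). The 95% interval of the fold, 0.737 to 1.54, is accordingly wide. Lamp5 (chromosome 2, 136052239 to 136069917, plus strand), a lysosome-associated membrane protein gene of superficial neurons and interneurons, had another order. It was at 20.4, 13.7 and 18.2 CPM in n-Braf 1, 2 and 3, against 14.0, 14.5 and 17.3 CPM in the controls. Its lowest and its highest library were both n-Braf, with a log2 ratio of 0.19 (SE 0.15, adjusted p = 0.881). That value was 0.065 without n-Braf 1, 0.34 without n-Braf 2 and 0.29 without control 3.

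**Figure D3:**
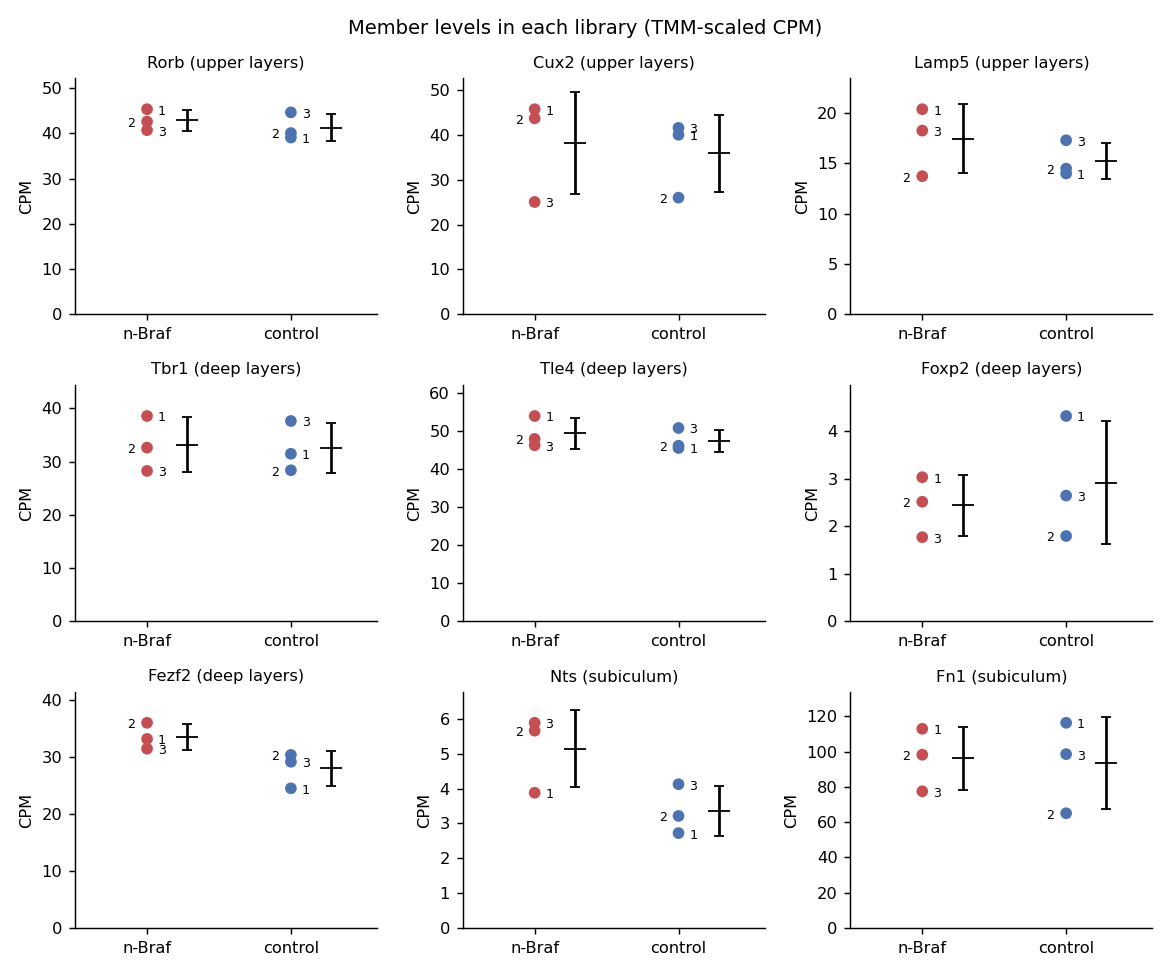
TMM-scaled CPM of each gene in the 3 n-Braf (red, left) and 3 control libraries (blue, right). Digits give the replicate number, and the bars to the right of the points are the mean and SD of each group (n = 3). Cux2 is low in n-Braf 3 (25.1 CPM) and control 2 (26.0 CPM), and Fezf2 is the gene whose groups do not overlap.

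The deep-layer genes included the 1 member whose groups were separate. Fezf2 (chromosome 14, 12342094 to 12348189, minus strand) encodes a zinc finger factor that specifies neurons projecting below the cortex. It was at 33.2, 36.0 and 31.5 CPM in n-Braf 1, 2 and 3, against 24.5, 30.4 and 29.2 CPM in control 1, 2 and 3. Every n-Braf library was above every control, by a gap of 31.5 against 30.4 CPM at the nearest pair, and control 1 was the lowest of all. The means were 33.5 ± 2.29 CPM in n-Braf and 28.0 ± 3.10 CPM in control (SD, n = 3 each), a 1.20-fold difference (log2 ratio 0.26, SE 0.099, unadjusted p = 0.0274, adjusted p = 0.685 by edgeR). Control 1 is the library highest in choroid plexus markers. Without it the log2 ratio of Fezf2 was 0.17 (adjusted p = 0.999), and against control 3 alone 0.20.

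Tbr1 (chromosome 2, 61802930 to 61814114, plus strand), a T-box factor of corticothalamic neurons, was at 38.6, 32.6 and 28.3 CPM in n-Braf 1, 2 and 3, against 31.5, 28.4 and 37.6 CPM in control 1, 2 and 3. The lowest libraries were again n-Braf 3 and control 2, and the groups overlapped throughout (log2 ratio 0.030, SE 0.13, adjusted p = 0.989). Tle4 (chromosome 19, 14448150 to 14598051, minus strand), a Groucho-family corepressor, was as even as Rorb. It was at 53.9, 47.9 and 46.2 CPM in n-Braf 1, 2 and 3, against 45.5, 46.1 and 50.8 CPM in the controls, a 1.19-fold span over the 6 libraries. Its log2 ratio was 0.057 (SE 0.081, adjusted p = 0.954).

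Foxp2 (chromosome 6, 14901349 to 15441977, plus strand), a forkhead factor of corticothalamic neurons, had the lowest mean level of the members, at 2.68 CPM. It had 97, 80 and 52 counts in n-Braf 1, 2 and 3, against 116, 48 and 68 counts in control 1, 2 and 3, and the lowest of these, 48, has an exact Poisson 95% interval of 35.4 to 63.6. In CPM the values were 3.04, 2.52 and 1.77 in n-Braf, against 4.33, 1.79 and 2.65 in the controls. It was the 1 member with a fitted value below 0 (log2 ratio -0.26, SE 0.33, adjusted p = 0.948), and control 1 set that direction, since without this library the value was 0.14. Markers of the thalamus, where Foxp2 is also made, had their highest sum in control 1 too, but not gene by gene. Rora, at 72.4 CPM, and Synpo2, at 13.4 CPM, were highest in n-Braf 1, and Ramp3 in control 3. The 7 thalamic genes summed to 111, 102 and 95.8 CPM in n-Braf 1, 2 and 3, against 120, 90.9 and 104 CPM in the controls, and their part in the Foxp2 value was not tested.

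Nts had the largest fitted difference among the members. It encodes the precursor of neurotensin and neuromedin N, peptides that act on G protein-coupled receptors, and its gene spans bases 102481756 to 102490486 of chromosome 10, minus strand. It had 124, 180 and 173 counts in n-Braf 1, 2 and 3, against 73, 86 and 106 counts in control 1, 2 and 3, and the lowest count of 73 has an exact Poisson 95% interval of 57.2 to 91.8. In CPM this was 3.88, 5.66 and 5.89 in n-Braf, against 2.72, 3.22 and 4.13 in the controls. The groups overlapped at 1 point, where control 3 exceeded n-Braf 1. The means of 5.15 ± 1.10 CPM in n-Braf and 3.36 ± 0.712 CPM in control (SD, n = 3 each) gave a 1.53-fold difference (log2 ratio 0.62, SE 0.23, unadjusted p = 0.0227, adjusted p = 0.672 by edgeR). Leaving out 1 library at a time, the log2 ratio of Nts ran from 0.49 to 0.79. Against control 3 alone, which leaves out the 2 libraries highest in choroid plexus transcripts, it was 0.32. In the authors' deposited table Nts also had the smallest adjusted p of the 9 genes, at 0.801.

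The promoter of Nts is shown because this gene had the largest fold, and because in the rat an AP-1 site and a cyclic AMP response element are known to control it. The 250 bases before the RefSeq start (chr10:102490419-102490668, GRCm38.p6, minus strand, given 5′ to 3′) are printed with matches to the letters TGACTCA (AP-1) and TGACATCA (a variant cyclic AMP response element) in capitals, on either strand. The GENCODE gene begins further upstream, within this window.
Nts: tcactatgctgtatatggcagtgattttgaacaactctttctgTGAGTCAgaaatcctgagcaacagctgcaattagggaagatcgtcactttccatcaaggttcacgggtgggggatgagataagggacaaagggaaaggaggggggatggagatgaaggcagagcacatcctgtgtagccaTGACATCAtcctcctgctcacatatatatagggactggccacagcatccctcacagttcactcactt
TGAGTCA, the reverse complement of the first motif, spans bases 207 to 201 before the start, and TGACATCA bases 67 to 60. Of 32851 promoter windows of the same length in the RefSeq table, 4.46% hold the first motif and 2.93% the second. The canonical element TGACGTCA, held by 1.55% of windows, is not in this one. The table has windows for 7 of the 9 genes, 11 in all, and the Nts window is the 1 with a match to any of the 3 motifs. Foxp2 and Fn1 have no entry in the table.

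Fn1 (chromosome 1, 71585520 to 71653200, minus strand) encodes fibronectin, an extracellular matrix glycoprotein that marks a population of subicular pyramidal neurons. It was at 113, 98.3 and 77.5 CPM in n-Braf 1, 2 and 3, against 116, 65.1 and 98.6 CPM in control 1, 2 and 3. The highest and the lowest library were both controls, and the log2 ratio was 0.045 (SE 0.20, adjusted p = 0.989). Fn1 did not follow Nts, which was highest in n-Braf 3, a library where Fn1 was low. Leptomeningeal cells and fibroblasts also make it. Their 8 markers summed to 103, 76.1 and 33.0 CPM in n-Braf 1, 2 and 3, against 200, 94.8 and 81.3 CPM in the controls; each of the 8 averaged over 1 CPM. Control 1 was highest both in this sum and in Fn1. Control 2, the lowest in Fn1, was above n-Braf 2, n-Braf 3 and control 3 in the sum. Igf2 alone gave 104 CPM of the sum in control 1 and 51.5 CPM in control 2, the 2 libraries highest in choroid plexus markers. It gave 19.8 CPM in control 3, and 36.1, 26.9 and 10.1 CPM in n-Braf 1, 2 and 3. The part of the choroid plexus in the Igf2 values was not tested. With every gene weighted equally, as its log2 deviation from its own mean, the order differed. The list was then lowest in n-Braf 3 (-1.13) and control 2 (-0.47) and highest in control 1 (1.16). That low pair, also the lowest in Fn1, was lowest for 5 of the 8 genes, but not for Igf2, Dcn and Lum. The part of leptomeningeal cells and fibroblasts in the Fn1 values was not tested. On the opposite strand the Fn1 locus overlaps Apol7d and the Cux2 locus overlaps Gm15637, and since the strand setting of the counting is not given, reads of each pair may be shared.

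Averaged over the members, single libraries differed more than the groups did. Each gene's log2 CPM was expressed as its deviation from the mean of the 6 libraries and averaged over the 9 genes. This gauge was 0.20, 0.090 and -0.097 in n-Braf 1, 2 and 3, against -0.013, -0.26 and 0.083 in control 1, 2 and 3. The groups overlapped, with means of 0.063 ± 0.15 in n-Braf and -0.063 ± 0.18 in control (SD, n = 3 each). The difference of 0.13 between them is smaller than either SD. By role, the gauge was 0.051 ± 0.20 in n-Braf and -0.051 ± 0.18 in control for the upper layers, and 0.019 ± 0.19 in n-Braf and -0.019 ± 0.15 in control for the deep layers. For the subiculum, which here means Nts and Fn1, it was 0.17 ± 0.091 in n-Braf and -0.17 ± 0.24 in control.

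The shared part of the pattern was low values in n-Braf 3 and control 2. These were the 2 lowest libraries for 4 of the 9 members, namely Cux2, Tbr1, Foxp2 and Fn1, while 9.01% of all genes had this pair lowest. The highest library was n-Braf 1 for 5 members, namely Rorb, Cux2, Lamp5, Tbr1 and Tle4, against 16.3% of all genes. Nts and Fezf2 took no part in either count. Both patterns were counted after the values were seen. In the gauge the low pair rested on Foxp2: without this gene control 1 stood at -0.11, below n-Braf 3 at -0.045, with control 2 still lowest. Within-group spread was uneven as well. The SD of log2 CPM within groups was 0.52 for Foxp2, 0.43 for Cux2 and 0.36 for Fn1, but 0.091 for Rorb and 0.10 for Tle4, where the median over the 16897 genes with a mean of at least 1 CPM was 0.15.

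**Figure D4:**
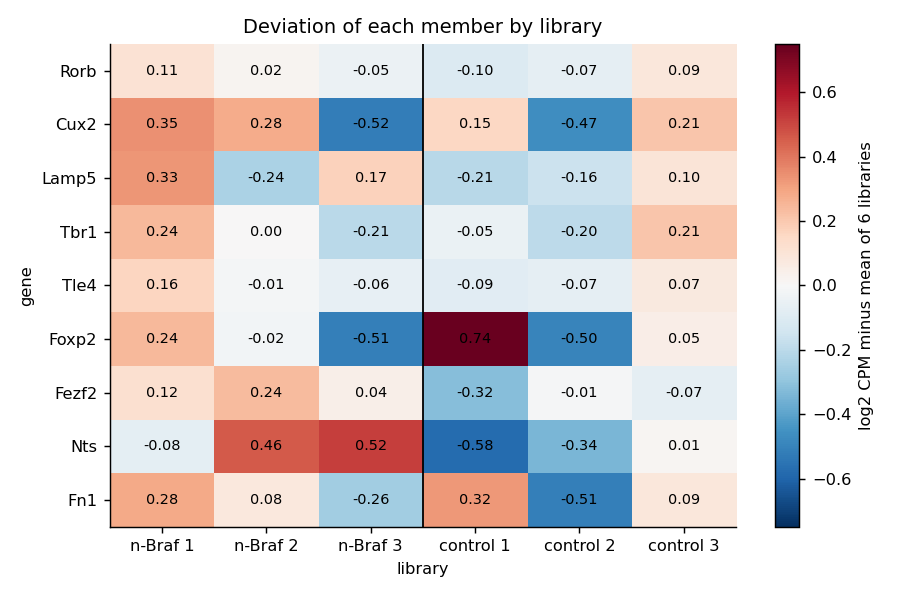
Deviation of each gene's log2 CPM from its mean over the 6 libraries, n-Braf left of the line and control right of it. Cux2, Foxp2 and Tbr1 are negative in both n-Braf 3 and control 2, Rorb and Tle4 stay near 0, and Nts runs from -0.58 in control 1 to 0.52 in n-Braf 3.

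Other markers of the neocortex followed this division of the libraries in part. Among 24 further layer markers 20 were higher in n-Braf and 4 lower, with a median log2 ratio of 0.12, against -0.0042 over all genes, and 0 passed the threshold (edgeR), 1 having an unadjusted p under 0.05. Their mean deviation was 0.24, 0.22 and -0.29 in n-Braf 1, 2 and 3, against -0.029, -0.23 and 0.092 in the controls, and n-Braf 3 with control 2 was the lowest pair for 8 of the 24. Others ran against it, such as Bcl11b, a zinc finger factor of deep-layer neurons that granule neurons also make, at 150, 142 and 190 CPM in n-Braf 1, 2 and 3, against 149, 172 and 149 CPM in the controls. Bcl6, Bcl11b and Rasgrf2 correlated with the gauge at -0.53, -0.70 and -0.28 over the 6 libraries. These 3 were chosen after their values were seen. Hs3st2, a heparan sulfate sulfotransferase gene, was at 8.20, 8.28 and 4.87 CPM in n-Braf 1, 2 and 3, against 4.66, 4.75 and 5.06 CPM in the controls (log2 ratio 0.56, SE 0.21, adjusted p = 0.676). Cplx3, a complexin gene of the deepest neocortical sublayer, was at 5.13, 3.15 and 1.74 CPM in n-Braf 1, 2 and 3, against 2.83, 1.12 and 2.69 CPM in the controls. Etv1, an ETS factor of deep-layer neurons, had a log2 ratio of 0.16 (SE 0.075, adjusted p = 0.747). Of 4 further subicular and entorhinal markers 3 were higher and 1 lower, with a median of 0.076. The mean deviation of that list was farthest from 0 in control 2, at -0.52. Its members Nr4a2, an orphan nuclear receptor gene, and Lxn, a carboxypeptidase inhibitor gene, had log2 ratios of 0.19 (SE 0.15) and 0.14 (SE 0.12), and Ly6g6e had -0.087 (SE 0.49).

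Among markers of the hippocampus itself, the dentate list ran opposite to the gauge across libraries, and the CA1 list did not follow it. Dentate correlations with the gauge were -0.83 for Prox1, -0.81 for Stxbp6, -0.80 for C1ql2 and -0.78 for Trpc6. They were -0.78 for Dsp, -0.75 for Lct and -0.24 for Pdzd2, while Tdo2, with a mean under 5 CPM, was not compared. The 8 dentate granule neuron genes summed to 313, 343 and 571 CPM in n-Braf 1, 2 and 3, against 446, 468 and 390 CPM in the controls. The library lowest in Cux2 among n-Braf thus had the highest dentate sum of all 6, and the 2 libraries highest in Cux2 the lowest. Of these 8 genes 1 was higher and 7 lower in n-Braf, their median log2 ratio being -0.17, and 0 had an unadjusted p under 0.05. Tdo2, a tryptophan dioxygenase gene, had a log2 ratio of -0.49 (SE 0.31), Pdzd2 of 0.27 (SE 0.18) and C1ql2, a secreted synapse organizer gene, of -0.26 (SE 0.19). All 6 CA1 genes were higher in n-Braf, with a median of 0.22 and 1 unadjusted p under 0.05, that of Mpped1 (log2 ratio 0.35, SE 0.12, adjusted p = 0.641). The POU factor gene Pou3f1 had 0.25 (SE 0.11) and the mannosidase gene Man1a 0.20 (SE 0.12). The CA1 genes summed to 373, 348 and 352 CPM in n-Braf 1, 2 and 3, against 299, 299 and 324 CPM in the controls. The groups did not overlap in this sum, but they overlapped for every 1 of the 6 genes taken singly. Of all genes, 6.09% did not overlap with n-Braf higher and 5.44% with n-Braf lower. By mean deviation the CA1 list was highest in n-Braf 3 (0.20) and lowest in control 1 (-0.21), where the gauge was -0.097 and -0.013. Their correlations with the gauge were 0.83 for Mpped1, 0.78 for Wfs1, 0.19 for Man1a, -0.14 for Pou3f1, -0.44 for Spink8 and -0.52 for Fibcd1. Of 7 CA2 and CA3 genes 1 was higher and 6 lower, with a median of -0.17. In that list Coch had -1.20 (SE 0.39), Bok 0.28 (SE 0.11) and Map3k15 -0.62 (SE 0.43).

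**Figure D5:**
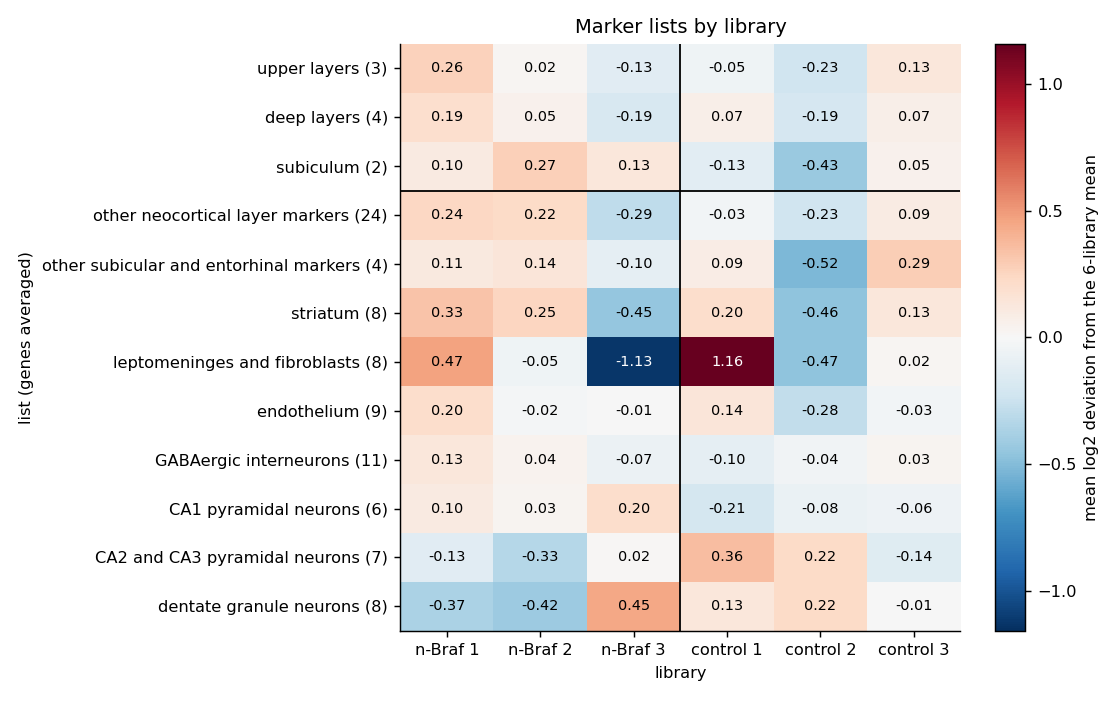
Mean deviation of log2 CPM from the 6-library mean for the members by role (above the line) and for 9 other marker lists, with the number of genes in parentheses. The other neocortical list is lowest in n-Braf 3 (-0.29) and control 2 (-0.23), while the dentate list is highest in n-Braf 3 (0.45).

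Markers of other tissues that border the hippocampus, and of cells that make some of the members, are given beside these values. The leptomeningeal list was lowest in n-Braf 3 (-1.13) and control 2 (-0.47), the same pair as for Cux2, and highest in control 1 (1.16). It had 1 gene higher and 7 lower in n-Braf, their median log2 ratio being -0.51. Its members Dcn (-0.70, SE 0.27), Lum (-1.09, SE 0.45) and the growth factor gene Igf2 (-1.26, SE 0.56) were lower. Igf2 was highest in control 1 and control 2, the libraries highest in choroid plexus markers. Striatal markers had the same pair lowest, at -0.45 in n-Braf 3 and -0.46 in control 2, with 4 higher, 4 lower and a median of 0.19. In that list Ppp1r1b, which encodes the phosphatase inhibitor DARPP-32, had -0.68 (SE 0.20), Tac1 0.52 (SE 0.25) and Rgs9 -0.19 (SE 0.12). The mean over the 11 interneuron genes, which bear on Lamp5, ran from -0.10 in control 1 to 0.13 in n-Braf 1. Of these genes 8 were higher and 3 lower, with a median of 0.087. Singly they spanned 1.11-fold to 2.22-fold over the libraries. The widest was Reln, at 183 CPM in n-Braf 1, also the library highest in Lamp5, and 82.5 CPM in n-Braf 3. Reln had 0.35 (SE 0.25), Sst 0.14 (SE 0.097) and Vip 0.28 (SE 0.20). The 6 astrocyte genes, which bear on Rorb, stayed between -0.049 and 0.035, with 3 higher, 3 lower and a median of -0.013. The 9 endothelial genes, which bear on Fn1, ran from -0.28 in control 2 to 0.20 in n-Braf 1, with 6 higher, 3 lower and a median of 0.15. Thalamic markers had 2 higher, 5 lower and a median of -0.26, myelin genes 0 and 6 with -0.29, microglial genes 2 and 3 with -0.060, and choroid plexus genes 0 and 9 with -3.41, each of the 9 having an unadjusted p under 0.05. No gene of any list passed the threshold in edgeR's test. The part of any of these cell types in the members' values was not tested.

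The genes whose pattern came closest to the gauge were found by Pearson correlation with it over the 6 libraries, among 11741 genes with a mean of at least 5 CPM. With 6 points, a search of this many genes returns some high values: 45 genes had r above 0.95 and 22 an equally strong negative r. The closest were Tmsb10, a thymosin gene (r = 0.996), the cadherin gene Cdh18 (r = 0.995), Eif2ak3, the kinase PERK of the unfolded protein response (r = 0.988), and Gng13, a G protein gamma subunit gene (r = 0.986). Sgcd (r = 0.985), Pdss1 (r = 0.984), Rab3b (r = 0.984), Pamr1 (r = 0.983), Letm1 (r = 0.982) and Garnl3 (r = 0.981) followed. Tmsb10 was at 61.2, 54.7 and 44.8 CPM in n-Braf 1, 2 and 3, against 50.6, 37.2 and 54.4 CPM in the controls. Like the gauge it overlapped between the groups (adjusted p = 0.893 by edgeR). These genes share libraries and depth with the members, and their likeness is a description.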

How the data were processed

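Strand-specific SMART-Seq libraries were made from 10.0 ng of hippocampal RNA, per the labels' protocols. Per the submitters' processing notes, reads were handled with bcl2fastq 2.20, fastp 0.20.1, STAR, RSEM and edgeR 3.36.0 on build mm10; the STAR and RSEM versions, strand setting and annotation are not given in the sources used here. For every gene and library the authors deposited an expected count, which need not be whole. Their deposited comparison adds a log2 fold change, an average level as log2 CPM, and a p-value with its adjusted form.

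Expected counts were rounded. The filterByExpr function of edgeR 4.0.16 (minimum count 10) kept 20604 genes. Quasi-likelihood tests with legacy settings in R 4.3.3 used TMM scaling, genotype group as sole term over the 6 libraries, and Benjamini-Hochberg adjustment over all genes. The step was tested on simulated data. Log2 CPM used a prior count of 2. Length is the union of GENCODE M21 exons. Intervals on counts cover counting error only. The labels number every mouse, so replicates are separate animals, and no 2 libraries agreed within counting noise.

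The members and lists were chosen with earlier results of these data known. Named genes were all members, Braf, up to 3 genes per list with the smallest unadjusted p, and the 10 closest to the gauge. Alternatives were other scalings, DESeq2 1.42.0, limma-voom (limma 3.58.1), quasi-likelihood without legacy settings, other filters, a replicate block, age, and leaving out libraries.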

Additional observations from a re-analysis of the deposited data

How the results depend on the processing

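Across 17 alternatives to the fit, 0 of the 9 genes passed in any, and the smallest adjusted p of a member was 0.451, for Nts. Fezf2, Nts and Lamp5 kept a positive value in all 17. Of 153 values 14 reversed. Leaving out 1 library at a time, the log2 fold change ran from -0.096 to 0.15 for Tbr1, from -0.095 to 0.31 for Cux2, from -0.51 to 0.14 for Foxp2, from -0.014 to 0.11 for Tle4, from -0.16 to 0.23 for Fn1, from 0.012 to 0.12 for Rorb and from 0.065 to 0.34 for Lamp5. Against control 3 alone, whose spread comes from n-Braf, it was -0.18 for Tbr1, -0.058 for Rorb, -0.12 for Cux2, -0.041 for Tle4 and -0.034 for Fn1. The members' median was -0.041 there, ran from -0.014 to 0.16 over the left-out libraries, and was 0.25 with age as a covariate (the cause was not tested). Over all genes the number called was 79 with DESeq2, 0 with limma-voom, 1 without legacy settings, 3 against control 3 alone, 2 at an adjusted p of 0.1, and 0 to 82 over the left-out libraries, the 82 without control 3. All 72 recomputed gauge values moved by less than the SD between libraries of their group, 0.15 in n-Braf and 0.18 in control. That bound is wide for a mean over 9 genes with 1 left out, so little can be read from it. Without Foxp2 control 1 went from -0.013 to -0.11 and became the second lowest library.

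Same-numbered libraries share only a number: their deviations correlated at 0.15, -0.058 and -0.011. A replicate block gave 0 calls and a members' median of 0.066. Counting error weighs most on Foxp2 and Nts, with as few as 48 and 73 counts.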

Other observations

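Within the neocortical list, 3 genes of its deepest sublayer, next to the white matter over the hippocampus, had some of the widest ranges. Ccn2, a secreted matrix-associated protein gene, was at 20.1, 15.1 and 5.21 CPM in n-Braf 1, 2 and 3, against 14.4, 3.63 and 12.5 CPM in control 1, 2 and 3, a 5.54-fold span. Nxph4, a neurexophilin gene, spanned 5.52-fold at a mean of 0.510 CPM, and Cplx3 4.58-fold. In all 3 the lowest pair was n-Braf 3 and control 2, as for Cux2. Wide ranges were not confined to this sublayer. Rspo1, a granular-layer gene of the same list, spanned 4.62-fold at a mean of 0.444 CPM and was lowest in control 1. The CA2 and CA3 marker Coch spanned 5.83-fold. Except Cplx3 and Coch, these genes were chosen after their values were seen.

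The desmosome gene Dsp and the lactase gene Lct, granule neuron markers also singled out afterwards, were highest in n-Braf 3. Dsp was at 48.3, 52.4 and 121 CPM in n-Braf 1, 2 and 3, against 100.2, 97.4 and 78.7 CPM in the controls. Lct was at 16.8, 14.5 and 46.4 CPM in n-Braf, against 27.0, 34.0 and 26.7 CPM in the controls.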
